A study of Sus scrofa with 4 samples.

Results

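Members of transforming growth factor-β (TGF-β), activin and bone morphogenetic protein (BMP) signalling, 10 genes in all, were followed in porcine intramuscular preadipocytes (PIP), in porcine mature adipocytes (pMA) made from them, and in pMA stimulated with serotonin or tumour necrosis factor-α (TNF-α). The genes were TGFB1, TGFB2, TGFB3, TGFBR2, TGFBR3, INHBA, FST, BMP2, BMP4 and GDF15, taken by name, and a probe was included where the array's own gene name was one of them. This gave 9 of the 10 genes with 16 probes, out of 34853 gene names with 43603 probes on the array. TGFBR2 had no probe under its own name, and the single probe that the array lists under a locus number of that gene was read separately and kept out of every count.

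The PIP line was derived from the longissimus thoracis muscle of a Duroc pig. Undifferentiated PIP cells made up the first group. The pMA were PIP cells kept for 4 days in medium with 50 ng/ml insulin, 0.25 µM dexamethasone, 2 mM octanoate and 200 µM oleate, so that all 3 pMA groups shared these agents and the PIP group did not. Stimulation lasted 12 h, with serotonin at 100 µM or TNF-α at 2.5 µg/ml. Each group was 1 array of pooled RNA from 1 cell line, which left no replicate check on any difference between arrays. Outside the arrays, the paper measured some genes by quantitative PCR (RT-qPCR) in independent experiments. Every comparison below is between 2 arrays of pooled RNA and not a test between conditions. In such bulk RNA, fewer cells of a type and less RNA per cell cannot be told apart. Probes printed in several spots had a standard deviation (SD) of 0.110 to 0.149 on the log2 scale within an array, and 56.5 to 66.0% of probes were well above background. Levels are given as log2 intensity relative to the 75th percentile of the array, so a level of 0 equals that percentile, and a difference of 1 between arrays is a 2-fold change. Levels of different probes are not compared with each other.

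TGF-β, activin and BMP ligands are secreted dimers that bind pairs of serine/threonine kinase receptors, which phosphorylate SMAD transcription factors. TGF-β and activin signal mainly through SMAD2 and SMAD3 and are known to restrain adipocyte differentiation, while BMP2 and BMP4 signal mainly through SMAD1, SMAD5 and SMAD9 and can commit precursor cells to the adipocyte lineage. Follistatin, the product of FST, binds activin and keeps it from its receptors, and GDF15 is a distant member of the family that is induced by cell stress.

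Sequences of the probes that represent FST, TGFB2, TGFB3 and GDF15 are shown here, with the second probe of FST, which moved the same way as the first, and the second probe of INHBA, which moved against the first and enters no count. All are written 5′ to 3′. For both FST probes and for TGFB2 the whole 60-base probe is given, and for the other 3 the last 30 bases. Capitals mark the letters AATAAA, which are those of the usual polyadenylation signal. The letters alone do not make a stretch such a signal, and its use was not tested. They start at base 22 of the 60 in TGFB2, at base 48 in TGFB3 and at base 52 in INHBA.
INHBA A_72_P223272: tcgggcacacagttgttgctcAATAAAttt
FST A_72_P640386: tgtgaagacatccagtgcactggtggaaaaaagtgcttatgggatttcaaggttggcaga
FST A_72_P057356: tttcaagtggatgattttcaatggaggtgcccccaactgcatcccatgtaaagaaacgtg
TGFB2 A_72_P541206: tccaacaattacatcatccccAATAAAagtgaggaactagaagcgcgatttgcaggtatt
TGFB3 A_72_P223537: gaagattgtttctaaacAATAAAggcctta
GDF15 A_72_P409208: tgaataccccattcttaaccattgctgtct

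AATAAA was present in 9.60% of all probes on the array and its reverse complement TTTATT in 4.17%. Among the member probes whose sequence was read, AATAAA was found in INHBA A_72_P223272, TGFB3 A_72_P223537 and TGFB2 A_72_P541206. TTTATT was found in TGFB3 A_72_P030601 and BMP4 A_72_P661557. The position of the probes in exons or untranslated regions was not determined here. In the RefSeq table of assembly Sscrofa11.1, which was used for names only, all 10 genes were found, FST lies between MOCS2 and NDUFS4, and INHBA lies between NAA38 and LOC102158553.

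Differentiation was checked first. Against PIP cells, where its probe was too dim to be called, FABP4, the adipocyte fatty acid binding protein, was higher in pMA by at least 8.48-fold. PPARG, the master regulator of adipogenesis, was 2.10-fold higher but faint, with log2 levels of -4.28 in PIP and -3.21 in pMA. In that comparison 9.92% of all gene names with a ratio were at least 2-fold higher. The summed linear level of 12 adipocyte markers was 6.45 in PIP, 19.8 in pMA, 44.8 after serotonin and 26.7 after TNF-α, with CD36, PLIN2 and CIDEC among the higher genes in pMA. This sum is weighted towards bright probes, and PLIN2, LPL and CD36 made up most of it after serotonin. However, PLIN1 was not well above background on any array, and CEBPA was so only after TNF-α. ADIPOQ, which encodes adiponectin, was well above background in PIP but not on any pMA array. Within the adipocyte list, FABP4 was 6.83-fold lower after serotonin than in unstimulated pMA and 2.72-fold higher after TNF-α. By RT-qPCR, the paper reports FABP4 as significantly lower after both, so the array differs from it after TNF-α. Other markers of the list went the other way after serotonin, with LPL 5.32-fold, CD36 2.78-fold and PLIN2 2.00-fold higher. DGAT2 was 1.21-fold and PPARG 1.06-fold lower.

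**Figure D1:**
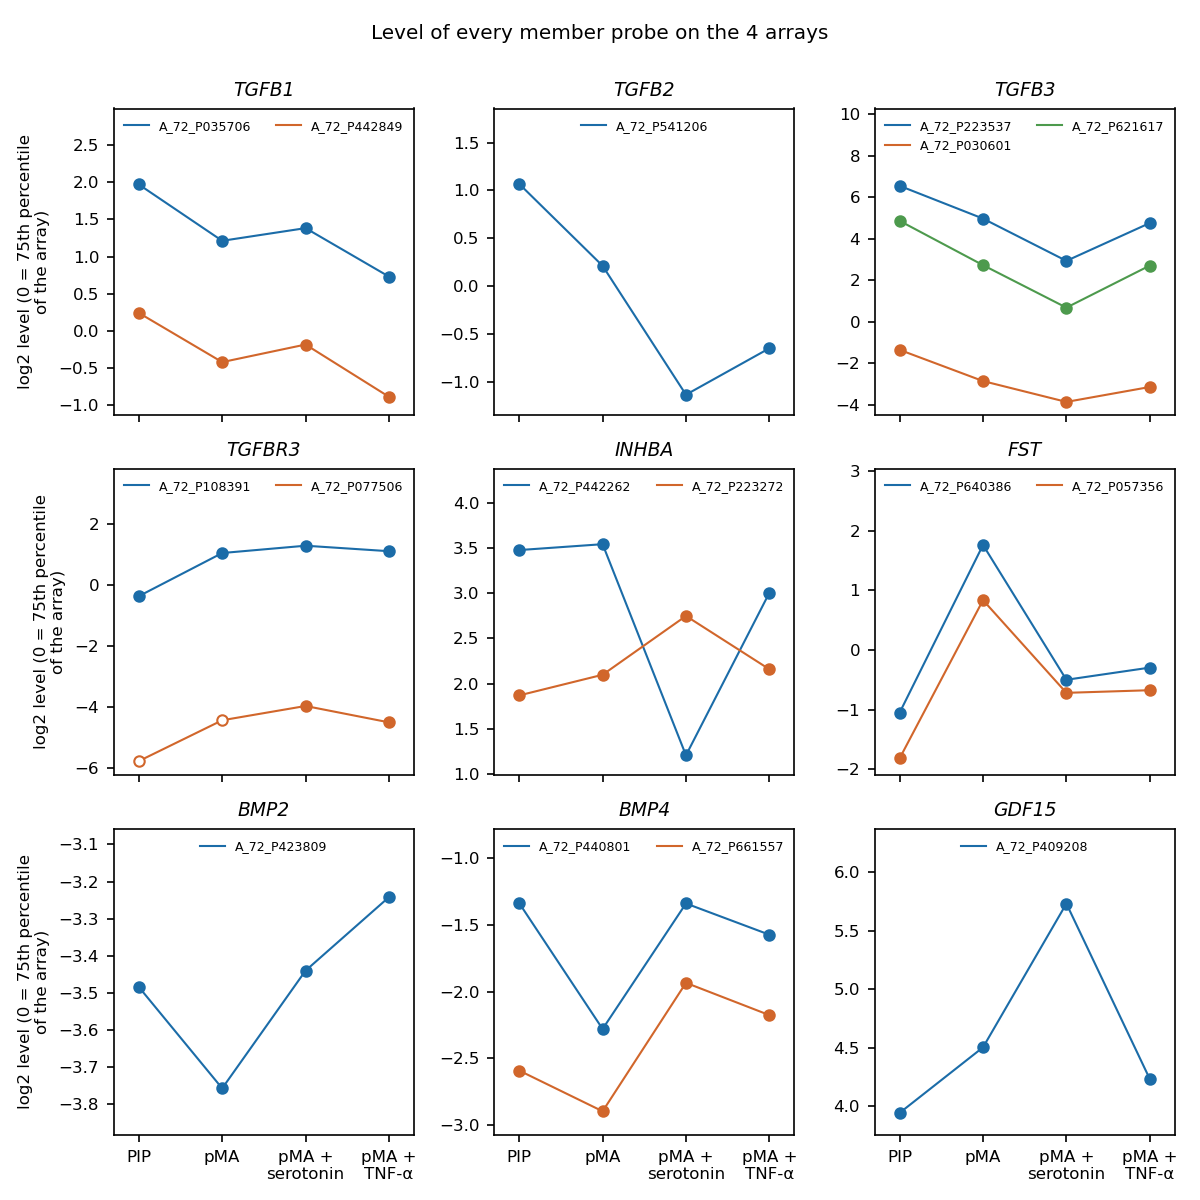
Level of each of the 16 member probes (lines, 1 colour per probe within a panel) on the 4 arrays (x axis), as log2 intensity relative to the array's 75th percentile (y axis, a separate scale per gene). Open circles are not well above background. FST was highest in pMA with both probes, TGFB3 was lowest after serotonin with all 3 probes, and the 2 INHBA probes moved in opposite directions after serotonin.

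The 3 TGF-β ligand genes were all lower in pMA than in PIP cells, and TGFB2 and TGFB3 were lower again after serotonin. For TGFB3, the brightest of 3 probes (A_72_P223537) had a log2 level of 6.55 in PIP, 4.97 in pMA, 2.94 after serotonin and 4.76 after TNF-α. The serotonin array was the lowest, and the TNF-α array was close to unstimulated pMA. TGFB3 was 2.98-fold lower in pMA than in PIP and 4.10-fold lower after serotonin than in pMA, while the log2 ratio after TNF-α was -0.21, about the size of the spot noise of a ratio in that comparison (0.20). Set directly against TNF-α, TGFB3 was 3.54-fold lower after serotonin. The second probe, A_72_P621617, gave log2 ratios of -2.13 for pMA against PIP, -2.04 for serotonin and -0.02 for TNF-α. A_72_P030601, the dimmest, gave -1.50, -1.0 and -0.29. All 3 probes therefore had the same sign in each of the comparisons. By RT-qPCR, the paper reports TGFB3 as significantly lower after both serotonin and TNF-α, while the array ratio after TNF-α was near the spot noise.

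TGFB2 had log2 levels of 1.07 in PIP, 0.21 in pMA, -1.14 after serotonin and -0.65 after TNF-α. Each pMA array was below the PIP array and each stimulated array was below unstimulated pMA. TGFB2 was 1.81-fold lower in pMA than in PIP and 1.82-fold lower after TNF-α than in pMA, both short of 2-fold, and it was 2.54-fold lower after serotonin. With arrays scaled to the median, the log2 ratios for pMA against PIP were -1.21 for TGFB2 and -1.11 for TGFB1, past 2-fold. A further probe, A_72_P346158, which the array describes as TGFB2 without giving it that gene name, had a log2 ratio of -1.64 for pMA against PIP, -1.22 after serotonin and -0.79 after TNF-α. With this probe, which was outside the counts, the difference between pMA and PIP passed 2-fold.

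TGFB1, the TGF-β ligand found in most tissues, differed less. The brighter probe, A_72_P035706, read 1.97 in PIP, 1.21 in pMA, 1.38 after serotonin and 0.73 after TNF-α. PIP was the highest array and TNF-α the lowest. The log2 ratio was -0.76 for pMA against PIP, 0.17 for serotonin against pMA, which is no larger than the spot noise of that ratio (0.17), and -0.48 for TNF-α against pMA. The second probe, A_72_P442849, gave -0.66, 0.24 and -0.47. Serotonin and TNF-α thus left TGFB1 at levels 1.57-fold apart, with serotonin the higher.

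Among receptors, TGFBR3 (betaglycan), a co-receptor that presents TGF-β2 and also binds inhibin, was higher in all pMA groups than in PIP cells. Its brighter probe, A_72_P108391, had log2 levels of -0.36 in PIP, 1.06 in pMA, 1.30 after serotonin and 1.12 after TNF-α. The PIP array stood apart and the 3 pMA arrays lay within 0.24 of each other. TGFBR3 was 2.67-fold higher in pMA than in PIP, and the log2 ratio was 0.24 after serotonin and 0.06 after TNF-α. The latter turned to -0.02 when arrays were scaled to their median. The second probe, A_72_P077506, was not well above background in PIP or in pMA, so against pMA it gave only a bound, at least 1.38-fold higher after serotonin. It was 1.45-fold higher after serotonin than after TNF-α.

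The separate probe for TGFBR2, the type II receptor that binds TGF-β directly, read -0.05 in PIP, 0.26 in pMA, -0.01 after serotonin and 0.27 after TNF-α. The 4 arrays differed little, and the largest of its log2 ratios against a control array was 0.32 for pMA against PIP.

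INHBA encodes the βA subunit, which forms activin A as a homodimer. Its 2 probes gave different answers after serotonin. A_72_P442262 had log2 levels of 3.48 in PIP, 3.54 in pMA, 1.21 after serotonin and 3.0 after TNF-α, so that serotonin alone was far below the others. A_72_P223272 had 1.87, 2.10, 2.75 and 2.16 in the same order, and here serotonin was the highest array. With the first probe INHBA was 5.04-fold lower after serotonin than in pMA, and with the second it was 1.57-fold higher. Both differences exceeded the spot noise. The second probe carries AATAAA near its 3′ end. The array lists an Ensembl transcript for the first and none for the second, and which transcripts each probe detects was not tested. For pMA against PIP the log2 ratio was 0.06 with the first probe and 0.23 with the second, and the former ranged from -0.28 (arrays scaled to the median) to 0.37 (scaled to spike-ins). TNF-α gave -0.54 with the first and 0.06 with the second.

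FST had the largest difference of any member between pMA and PIP. The brighter probe, A_72_P640386, had log2 levels of -1.05 in PIP, 1.76 in pMA, -0.50 after serotonin and -0.30 after TNF-α. Unstimulated pMA was the only high array, and both stimulated arrays lay much nearer to PIP than to pMA. FST was 7.01-fold higher in pMA than in PIP, 4.79-fold lower after serotonin than in pMA and 4.16-fold lower after TNF-α. The second probe, A_72_P057356, read -1.82, 0.83, -0.72 and -0.68 in the same order, and its differences were 6.28-fold, 2.94-fold and 2.85-fold in the same directions. The 2 stimulated arrays differed from each other by a log2 ratio of -0.20 with the first probe and -0.04 with the second. Because the same unstimulated array entered all 3 of these ratios, they are not independent of each other. One more probe that the array describes as similar to FST was not well above background on any array.

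BMP2 and BMP4, ligands of the BMP branch, did not reach 2-fold in any comparison, although the log2 ratio of BMP4 for pMA against PIP was -1.29 with arrays scaled to the median and -1.05 with quantile normalization. BMP4 probe A_72_P440801 had log2 levels of -1.34 in PIP, -2.28 in pMA, -1.34 after serotonin and -1.57 after TNF-α. Unstimulated pMA was the lowest array, and the serotonin array equalled PIP. BMP4 was 1.92-fold lower in pMA than in PIP and 1.92-fold higher after serotonin than in pMA, and it was 1.63-fold higher after TNF-α. Its second probe, A_72_P661557, gave log2 ratios of -0.31, 0.96 and 0.72, so the difference between pMA and PIP was smaller with this probe. With arrays scaled to spike-ins the serotonin ratio of BMP4 reached 1.07, and with the normexp background correction it was 0.53.

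BMP2 was faint, at -3.48 in PIP, -3.76 in pMA, -3.44 after serotonin and -3.24 after TNF-α. The 4 arrays spanned little, with log2 ratios of -0.27, 0.32 and 0.52 for pMA against PIP, serotonin against pMA and TNF-α against pMA. Under the normexp background correction the first 2 of these became 0.02 and -0.03, and the last 0.04, so no direction is given for BMP2.

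GDF15 had log2 levels of 3.95 in PIP, 4.51 in pMA, 5.73 after serotonin and 4.24 after TNF-α. The serotonin array was the highest and the other 3 lay within 0.56 of each other. GDF15 was 2.34-fold higher after serotonin than in pMA and 2.82-fold higher after serotonin than after TNF-α. It was 1.47-fold higher in pMA than in PIP and 1.21-fold lower after TNF-α than in pMA.

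**Figure D2:**
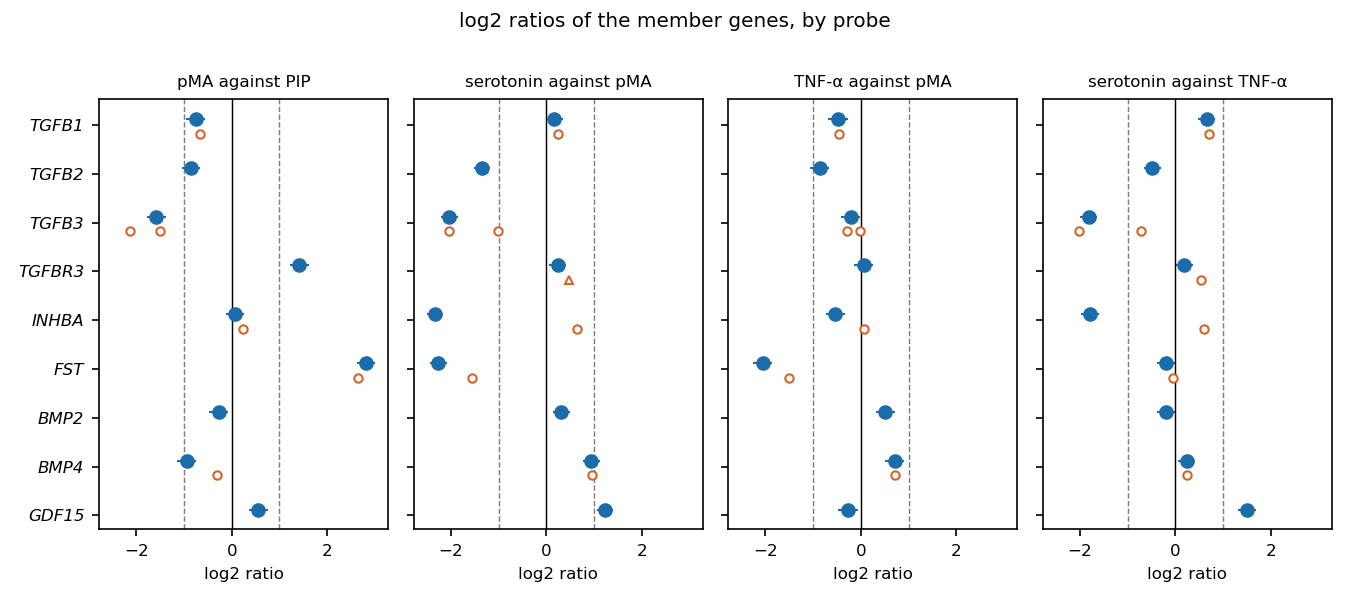
log2 ratio (x axis) of each member gene (rows) in the 4 comparisons (panels). Filled circles are the probe that represents the gene, with bars of 1 SD of a log2 ratio from repeated spots (0.175 to 0.202), open circles are other probes and the triangle is a lower bound. Dashed lines mark 2-fold. FST lay beyond 2-fold to the right for pMA against PIP and to the left for both stimulations.

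In total, 2 of the 9 members (TGFBR3 and FST) were at least 2-fold higher in pMA than in PIP, where 9.92% of the 18635 gene names with a ratio were, and 1 (TGFB3) was at least 2-fold lower, where 3.56% were. The median log2 ratio was -0.27 over the members and 0.12 over all gene names. After serotonin 1 member (GDF15) was at least 2-fold higher than in pMA, where 2.08% of gene names were, and 4 (TGFB2, TGFB3, INHBA and FST) were at least 2-fold lower, where 4.74% were. The medians were 0.17 for the members and 0.01 for all. After TNF-α no member was at least 2-fold higher, where 2.21% of gene names were, and 1 (FST) was at least 2-fold lower, where 1.34% were. The medians were -0.27 and 0.01. Between the stimulated arrays, GDF15 was at least 2-fold higher after serotonin than after TNF-α, where 1.82% of gene names were, and TGFB3 and INHBA were at least 2-fold lower, where 5.08% were. When each gene was given the median of its probes, INHBA passed 2-fold in neither of its comparisons, with log2 ratios of -0.84 for serotonin against pMA and -0.60 for serotonin against TNF-α.

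The wider pathway was read from a list of 116 genes that includes the members, and 65 of the others were on the array under their own names or another symbol. In pMA against PIP 3 of the 57 with a ratio were at least 2-fold higher and 2 at least 2-fold lower, beside 9.92% and 3.56% of all gene names. After serotonin the counts were 0 and 2 of 58, beside 2.08% and 4.74%, and after TNF-α both were 0 of 57, beside 2.21% and 1.34%. None of these counts lay above the share over all gene names. The 5 SMAD genes read on the array (SMAD1, SMAD2, SMAD3, SMAD4 and SMAD9) stayed within 2-fold in each of these comparisons, and SMAD4, the shared partner SMAD, had log2 levels of 3.24 in PIP, 2.95 in pMA, 3.21 after serotonin and 2.96 after TNF-α.

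The genes past 2-fold for pMA against PIP came from several roles. BMPR2, the type II BMP receptor, was 2.61-fold higher in pMA with its brighter probe, but its other probe gave a log2 ratio of -0.14. CDKN2B, a cell cycle inhibitor induced by TGF-β, was 2.50-fold higher, and BMP15, an oocyte growth factor that was faint here, was 2.24-fold higher. On the other side RGMA, a BMP co-receptor, was 2.98-fold lower, with -0.17 from its second probe, and MSTN (myostatin), which limits muscle growth, was 2.88-fold lower. In at least 1 alternative setting each of these 5 genes came short of 2-fold, with log2 ratios down to -0.11 for BMPR2, 0.62 for CDKN2B, 0.63 for BMP15, -0.87 for RGMA and -0.87 for MSTN. MSTN had log2 levels of -1.74 in PIP, -3.27 in pMA, -3.61 after serotonin and -3.58 after TNF-α, and PIP alone was higher.

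**Figure D3:**
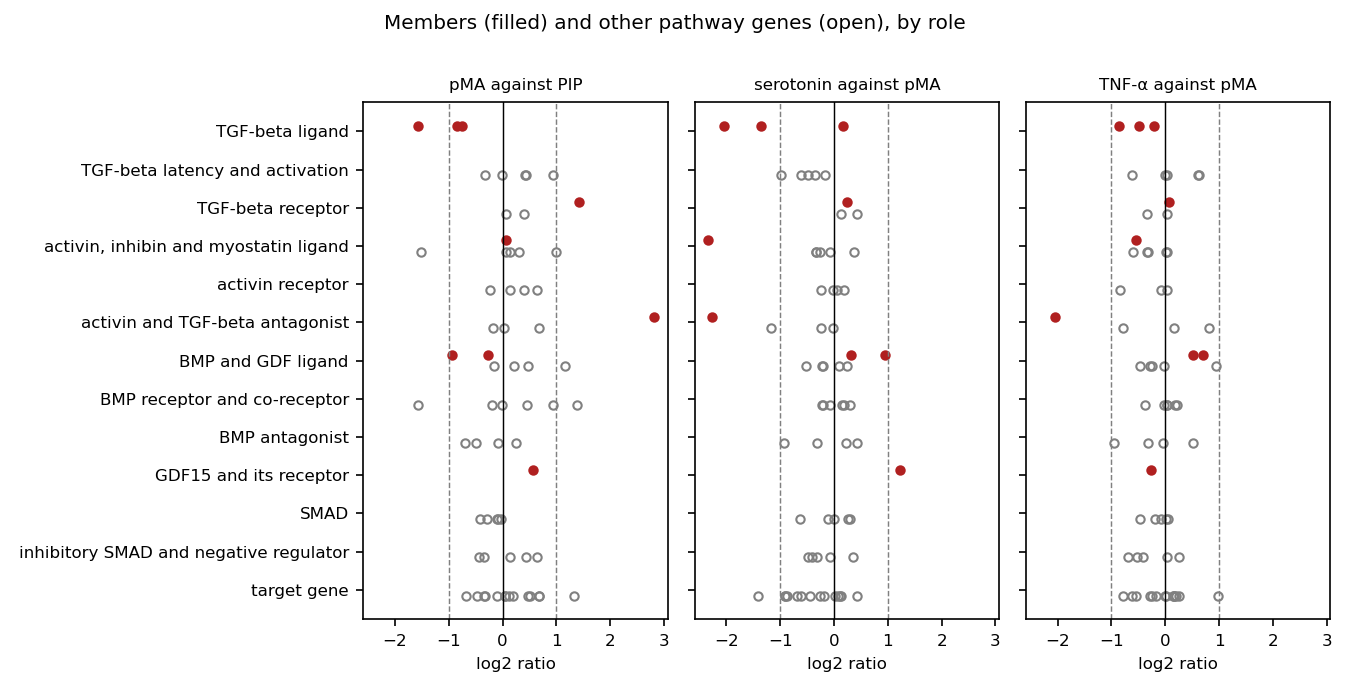
log2 ratio (x axis) of the members (filled) and of the other pathway genes on the array (open), by role (rows), in the 3 comparisons with unstimulated or undifferentiated cells (panels). Dashed lines mark 2-fold. For the TGF-β latency and activation genes, the 5 open circles after serotonin all lay below 0, and no open circle passed 2-fold after TNF-α.

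After serotonin, the pathway genes at least 2-fold lower than in pMA were COL1A1 and DCN. COL1A1, which encodes a chain of type I collagen, had log2 levels of 2.78 in PIP, 2.89 in pMA, 1.48 after serotonin and 2.11 after TNF-α and was 2.66-fold lower after serotonin. The serotonin array was the lowest and the TNF-α array lay between it and pMA. DCN (decorin), a matrix proteoglycan that binds TGF-β, read 3.58, 4.25, 3.08 and 3.46 in the same order and was 2.24-fold lower, with all 5 probes lower.

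Of the 14 target genes read on the array, 9 had a log2 ratio below 0 after serotonin and 5 above, with a median of -0.35, which ranged from -0.37 to -0.22 over the alternative settings. After TNF-α 6 were below 0 and 8 above, with a median of 0.01, which took either sign over those settings (-0.08 to 0.10). The median over all gene names was 0.01 in both. ACTA2 (smooth muscle actin) was at -0.88 against pMA on the serotonin array and at -0.17 on the TNF-α array, and its 7 probes spread from -2.78 to -0.38 after serotonin. The ID genes, which are BMP targets, are named here after their values were seen. After serotonin the log2 ratios were 0.08 for ID1, -0.61 for ID2, -0.45 for ID3 and -0.69 for ID4. After TNF-α they were 0.98 for ID1, 0.15 for ID2, 0.00 for ID3 and 0.14 for ID4. The 4 probes of ID4 disagreed in size, from -2.42 to -0.69 after serotonin. After TNF-α they spread from -1.23 to 0.14, with only 1 above 0, so no direction is given for ID4 there.

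**Figure D4:**
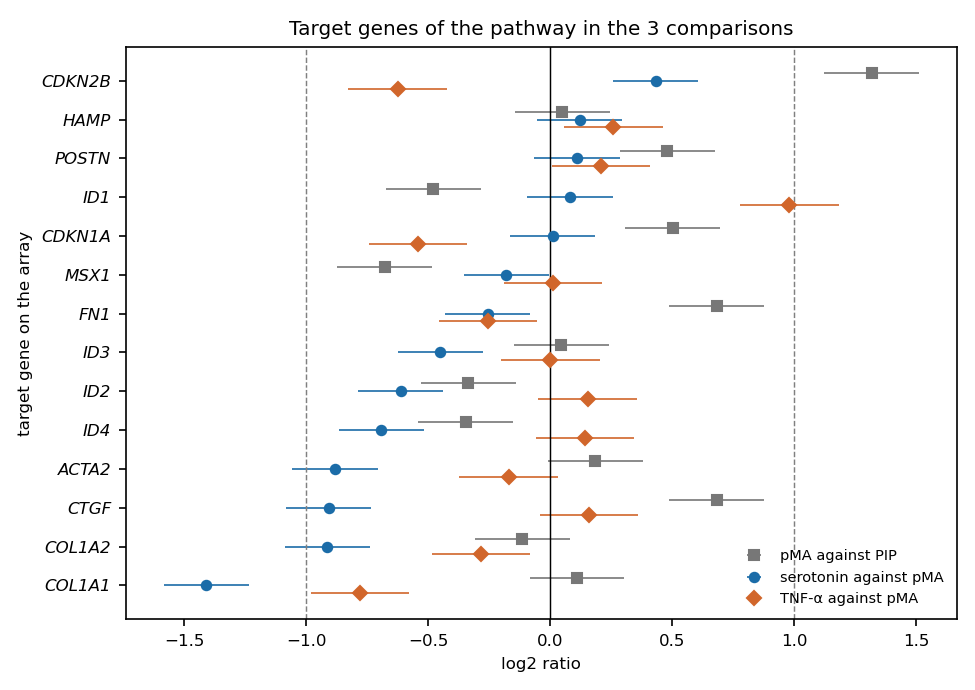
log2 ratio (x axis) of the 14 target genes (rows, ordered by the ratio after serotonin) for pMA against PIP (squares), serotonin against pMA (circles) and TNF-α against pMA (diamonds). Bars are 1 SD of a log2 ratio from repeated spots, and dashed lines mark 2-fold. COL1A1 was the target gene beyond 2-fold after serotonin, and none was after TNF-α.

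The 5 genes of TGF-β latency and activation with a ratio were all below 0 after serotonin, with a median of -0.49 that ranged from -0.52 to -0.37 over the alternative settings. The median over all gene names was 0.01. ITGB8, at -0.16, was within the spot noise of that ratio (0.17). For THBS1, 5 of 6 probes were below 0, and its probes spread from -0.713 to 0.365. ITGAV, the integrin αV subunit that frees latent TGF-β, had log2 levels of 6.08 in PIP, 6.5 in pMA, 5.51 after serotonin and 7.12 after TNF-α, and its 7 probes had the same sign in each stimulation. The stimulated arrays lay on opposite sides of pMA. Set directly against TNF-α, serotonin left ITGAV 3.05-fold lower, LTBP2, a latent TGF-β binding protein, 2.15-fold lower, and CTGF, a matrix protein induced by TGF-β, 2.09-fold lower. BMP7 was at least 2.71-fold lower, being well above background only after TNF-α. The 2 pathway genes at least 2-fold higher after serotonin than after TNF-α were CDKN2B, 2.08-fold, and ZFYVE9 (SARA), which anchors SMAD2 and SMAD3 at the receptor, 2.08-fold. These 6, 2 higher and 4 lower, were from the 60 pathway genes with a ratio in that comparison. Of all gene names, 1.82% were at least 2-fold higher and 5.08% at least 2-fold lower. Both pathway counts lay slightly above those shares. Only ITGAV stayed past 2-fold under all settings, while the log2 ratio came down to -0.46 for the bound of BMP7, 0.38 for ZFYVE9, 0.49 for CDKN2B, -0.95 for LTBP2 and -0.93 for CTGF in at least 1 of them.

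Apart from the members, COL1A1 and DCN, no gene of any role was past 2-fold against pMA in either stimulation with the probe that represents it. Against pMA, ENG (endoglin), a TGF-β co-receptor, was at a log2 ratio of 0.13 on the serotonin array and 0.03 on the TNF-α array, and ACVR2A, a type II activin receptor, was at -0.02 and -0.85. THBS1 (thrombospondin), which releases TGF-β from its latent form, had -0.35 and -0.01, AMH, the anti-Müllerian hormone, had -0.53 and -0.25, and GDF11, a relative of myostatin, had 0.36 and -0.34. PMEPA1, a negative regulator induced by TGF-β, had -0.31 and -0.52, and CHRDL1, a BMP antagonist, had -0.31 and 0.52. For pMA against PIP, the log2 ratios were 0.05 for ENG, 0.39 for ACVR2A, 0.67 for DCN, 0.24 for CHRDL1, 0.44 for PMEPA1 and -0.02 for THBS1, whose 6 probes spread from -3.43 to 1.02. GFRAL, the receptor of GDF15, was not well above background on any array.

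Some muscle genes moved with the serotonin comparison, and their values stand here beside the lower TGFB2, TGFB3 and COL1A1. They also stand beside INHBA, which was lower with only 1 of its 2 probes. Of 7 skeletal muscle markers 5 were well above background on each array, and their summed linear level was 644 in PIP, 659 in pMA, 177 after serotonin and 612 after TNF-α. Such a sum is weighted towards bright probes, here almost wholly ACTA1, and is compared only between arrays. ACTA1, the skeletal muscle actin, was 3.83-fold lower after serotonin than in pMA, DES (desmin) was 2.03-fold lower and CKM, the muscle creatine kinase, was 1.69-fold lower, while PAX7, a satellite cell factor, was 1.31-fold higher. The defining regulators MYOD1 and MYF5 were not well above background on any array, and MYOG had a log2 ratio of -0.01. Within the preadipocyte and fibroblast list, DPT was 2.84-fold, THY1 1.84-fold, VIM 1.27-fold and LUM 1.21-fold lower after serotonin than in pMA. PDGFRB was 1.21-fold higher, and DLK1 was too dim for a ratio. This list summed to 455 in PIP, 549 in pMA, 422 after serotonin and 468 after TNF-α, and VIM made up most of each sum. In the same order, the endothelial list summed to 1.59, 1.16, 0.483 and 1.16, with CDH5 and TEK not well above background on any array, and the macrophage and leukocyte list, with 2 of 6 genes on the array, to 1.36, 1.89, 1.86 and 2.97. The part of these genes in the differences of the members was not tested.

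The gene symbols whose 4 levels followed each member most closely were found among 4754 symbols, for the 7 members whose levels spanned at least 1 on the log2 scale. Likeness was the root mean square difference of log2 levels after subtracting each gene's own mean, over 4 arrays only, which all genes share, and it is given as a description. DUSP6, a phosphatase that switches off ERK, came nearest to GDF15, at 0.038. With probe A_72_P442262, EFHD1, CNN1 and PLN came nearest to INHBA, at 0.092, 0.101 and 0.156, where CNN1 (calponin) is a smooth muscle protein and PLN (phospholamban) a calcium pump inhibitor of muscle. The other INHBA probe was higher after serotonin than in pMA and these 3 genes were lower. BDNF, CBLN1 and TOX came nearest to TGFB2, at 0.069, 0.119 and 0.151. DLX2, IFIT1 and DDX58 came nearest to TGFB3, at 0.094, 0.144 and 0.177, and the last 2 are interferon-induced genes. For TGFBR3 they were TAF15, NRIP3 and S100A7, at 0.050, 0.070 and 0.082, and for TGFB1 they were ETV3, MDM1 and ANKRD28, at 0.061, 0.063 and 0.065. FST had no close neighbour by comparison, with BHLHE41, PDE2A and PDGFC at 0.402, 0.429 and 0.450, all of them highest in pMA. CD79A and THOC3 followed DUSP6 for GDF15, at 0.083 and 0.094.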

How the data were processed

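RNA pooled per group was labelled with Cy3 and hybridised to porcine Agilent arrays, 1 array for each of 4 groups. Per the labels and file headers, the authors scanned the arrays and extracted spot intensity with Agilent Feature Extraction 10.7.3.1, which subtracts background and marks spots well above it. A value table was also deposited, in which each value is the ratio of processed signal to a constant of its array (455 to 540), close to the 75th percentile of all its spots; it was used as an alternative. The methods name 2-colour arrays and a mouse array as well, but the deposited files hold 1 colour and porcine probes.

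Processed signals of 43803 non-control spots were divided by the 75th percentile of their array (479 to 566) and log2 transformed, after 1 to 12 outlier spots per array were left out. The number of arrays, not sequencing depth, limits the precision. For genes with several probes, the probe whose level averaged highest over the arrays was used. Where a probe was not well above background on 1 array of a pair, that array was set to its faintest level well above background if it was lower, and the difference is given as a bound. With 1 array a group no p-value was computed, and genes were counted at 2-fold, the cutoff of the study. The spike-in median differed by -0.30 (pMA against PIP), -0.12 (serotonin against pMA), -0.09 (TNF-α against pMA) and -0.03 (serotonin against TNF-α) on the log2 scale. A pathway gene and a probe sequence are not reported here. Members, pathway list and marker lists were chosen with earlier results of these data known. All members, every pathway gene past 2-fold, and otherwise the brightest gene of a role were named by rule, and the ID genes after their values were seen. Python 3.11.15, pandas 2.3.3, R 4.3.3 and limma 3.58.1 were used, and the scripts were tested on simulated data.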

Additional observations from a re-analysis of the deposited data

How the results depend on the processing

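In all, 9 alternatives were tried, of which the scaling to spike-ins was chosen after seeing the data. No paired analysis was possible because each group is 1 array. No member past 2-fold changed sign under any of them. Of the 36 ratios of members, the deposited value table, no filter on dim probes and probes well above background on all 4 arrays moved none by more than the spot noise, quantile normalization moved 1, the median over probes 6, normexp 8, and scaling to the median or to spike-ins 9 each, all of the latter in pMA against PIP.

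For pMA against PIP, 6 members instead of 3 passed 2-fold with scaling to the median (2 higher, 4 lower), 4 with quantile normalization (2 higher, 2 lower) and 1 at a 4-fold cutoff. Of the pathway genes, 1 instead of 5 passed with normexp, 8 with spike-ins and 0 at 4-fold. For serotonin against pMA, 3 members instead of 5 passed 4-fold (TGFB3, INHBA and FST), and 5 pathway genes instead of 2 passed with no filter on dim probes, 4 with the median over probes and 0 at 4-fold. For TNF-α against pMA, 1 pathway gene instead of 0 passed with quantile normalization, 1 with scaling to the median, 2 with no filter on dim probes and 2 with spike-ins. For serotonin against TNF-α, 0 members instead of 3 passed 4-fold. The median log2 ratio of all gene names for pMA against PIP was 0.12, against 0.04 with quantile normalization, -0.22 with scaling to the median and 0.44 with spike-ins, and the gene names higher and lower were 1849 and 664, 1063 and 881, 854 and 1650, and 3545 and 354. For serotonin against pMA they were 398 and 905, 451 and 869, 451 and 828, and 599 and 681, and for TNF-α against pMA 438 and 265, 430 and 443, 367 and 364, and 522 and 175, in the same order. For serotonin against TNF-α they were 399 and 1110, 631 and 969, 580 and 857, and 432 and 1036. Apart from the effect of a stricter cutoff, the cause of these shifts was not tested.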
